A study of Arabidopsis thaliana with 6 samples.

Results

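The comparison of the cpsf30-1 mutant with wild type (WT) took 4 of the 6 RNA-seq libraries of a study of Arabidopsis thaliana, 2 of cpsf30-1 and 2 of WT, chosen by their labels alone. All came from 9-day-old seedlings in the Col-0 ecotype, and the labels give neither the kind of mutation in cpsf30-1 nor whether replicates were separate sets of plants, so p-values measure the spread between these libraries, which may be technical. The remaining 2 libraries, from nerd-1 seedlings of the same age, entered the fit for the shared estimate of spread only. For each annotated transcript the deposited value is the number of reads in the 500 bases past its 3' end, here called a window and named after the gene upstream of it. Poly(A) RNA was taken from whole seedlings, where fewer cells of a type and less RNA per cell cannot be told apart.

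CPSF30 is a subunit of the cleavage and polyadenylation specificity factor, the complex that recognises signals near the end of a pre-mRNA and directs its cleavage and the addition of the poly(A) tail. The best known of these signals is the hexamer AAUAAA, written AATAAA in DNA, which in plants is one of several sequences found upstream of the cleavage site. When a transcript is cleaved farther downstream than its annotated end, or is not cleaved there, its reads extend past that end. Reads in a window can also come from a neighbouring gene, so the windows were divided by what the annotation holds there.

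Of 31109 genes, 13927 had an isolated window with no other annotated gene on either strand, 9651 had a window touching genes on the other strand only, 7040 had one touching a gene on the same strand, and 491 could not be placed. Windows on at least 300 exon bases of 1 other gene held a median of 1055 reads over all libraries where that gene was on the other strand and 645 where it was on the same strand, against 3 in isolated windows, so reads of both strands were counted and sense and antisense reads cannot be told apart. The libraries held 13973971 and 15382351 window counts in cpsf30-1, against 11793952 and 18569498 in WT. Window positions are approximate: of 3794 isoform pairs whose ends differ in the reference and whose windows held at least 100 reads in total, 1280 (33.7%) had identical counts in every library. Stretches in which adjacent windows share a floor of reads are called runs here: 10 windows in a row, none under 10 reads, with at least 3 exactly at the lowest count. They took in 171 and 300 windows in cpsf30-1, against 264 and 244 in WT. An intergenic window below means an isolated window that overlaps no exon of its own gene in the reference and lies in no run. The 500 bases are a fixed width, and no gene body counts were used here.

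Reads at the targeted gene went with the labels. The window past transcript 2 of CPSF30 (AT1G30460), at chr1:10770686-10771185 of TAIR10.1, lies for 373 bases on exons of the longer transcript 1 and held 1 and 0 reads in cpsf30-1, against 43 and 49 reads in WT. This difference was called by edgeR in the fit of all deposited transcripts (log2 fold change -6.20, adjusted p = 0.00538). The window past transcript 1 held 4 and 16 reads in cpsf30-1, against 4 and 2 reads in WT, and was too low to test. Both windows also touch another gene on the other strand, and its reads cannot be told apart from those of CPSF30. Tissue markers could be read only from neighbours' windows that lie on their exons. The green-tissue genes CAB1 and CAB3, which encode light-harvesting proteins, stood at 41182 and 46709 CPM (CAB1) and 12933 and 13205 CPM (CAB3) in cpsf30-1, against 34061 and 40599 CPM (CAB1) and 12447 and 16722 CPM (CAB3) in WT. CPM stands for window counts scaled to a common library total. Of the other markers fixed for other organs, the root-hair gene EXPA7 was at 34.1 and 40.4 CPM in cpsf30-1 and 29.8 and 24.4 CPM in WT, the seed gene OLEO1 at 2.90 and 0.278 CPM in cpsf30-1 and 0.226 and 0.301 CPM in WT, and the flower gene AG at 0 and 0 CPM in cpsf30-1 and 0 and 0.150 CPM in WT. The green marker LHCA1, read at its 5' end, was at only 8.32 and 4.36 CPM in cpsf30-1 and 3.51 and 2.26 CPM in WT, and RCA stood at 11045 and 6017 CPM in cpsf30-1, against 3698 and 10808 CPM in WT. The other 9 markers had no such reading.

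Windows past gene ends gained reads in cpsf30-1 more often than they lost them, and most clearly where no other gene lay in the window. Of 14151 windows with enough reads to test, 1049 (7.41%) rose and 404 (2.85%) fell at an adjusted p under 0.05, by edgeR's quasi-likelihood test with Benjamini-Hochberg adjustment over all windows tested, and 12698 did not pass. Among isolated windows 301 of 1932 (15.6%) rose and 34 (1.76%) fell, with a median log2 fold change of 0.50, against -0.01 over all windows. Where a gene lay on the other strand, 338 of 7176 (4.71%) rose and 225 (3.14%) fell, and where a gene lay on the same strand, 399 of 4920 (8.11%) rose and 137 (2.78%) fell. These counts are descriptions of windows and not a test between classes. They moved with single libraries when each was left out and the filter repeated: 68 isolated windows rose when cpsf30-1 replicate 1 was dropped and 49 when replicate 2 was dropped, while dropping WT replicate 1 gave 145 and WT replicate 2 gave 126, against 301 with all libraries. The ratio of risen to fallen isolated windows was lowest without WT replicate 2, where more isolated windows fell than with all libraries. The median log2 fold change of isolated windows was then 0.89 with the filter repeated. Both cpsf30-1 libraries stood above both WT libraries in CPM in 27.5% of the windows tested and below them in 24.6%. All 263 risen and all 28 fallen intergenic calls were free of overlap, and named windows were picked for that. Statements below that a called window had no overlap are therefore descriptions and add no support.

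**Figure D1:**
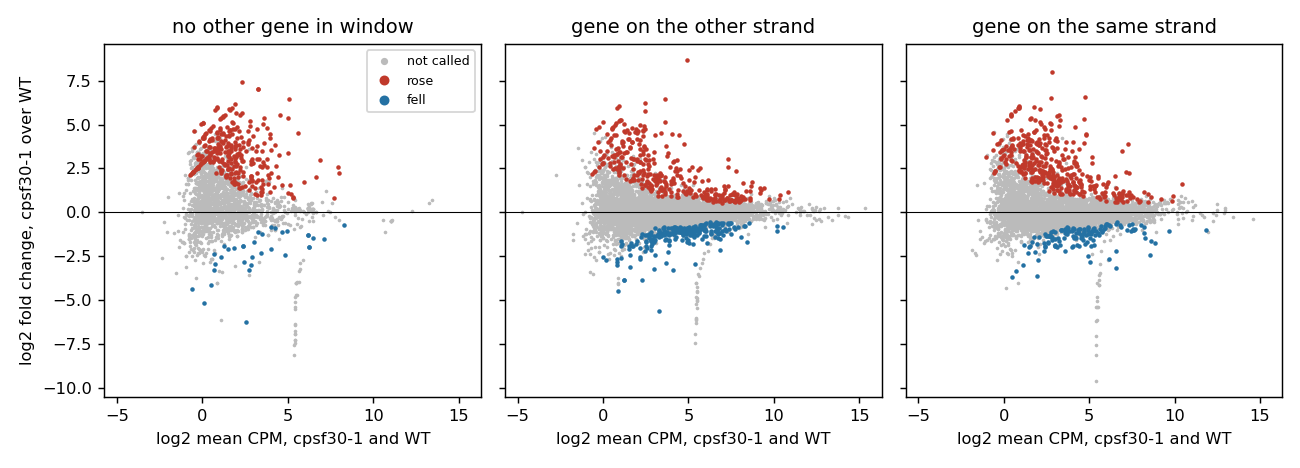
Log2 fold change of cpsf30-1 over WT (vertical axis) against the log2 of the mean CPM of both genotypes (horizontal axis) for every window tested, with windows at 0 reads in 1 genotype drawn at their bound. The 301 isolated windows that rose (red, left panel) spread over low and middle levels, while 34 fell (blue). The thin line of grey points hanging below 0 in each panel holds 66 windows, 54 of them in runs and 59 on chromosome 1. They held 505 to 1601 reads in WT replicate 1, against a median of 36.5 reads in WT replicate 2.

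After 241 isolated windows on exons of their own gene and 144 in runs were set aside, 263 of 1547 intergenic windows rose (17.0%) and 28 fell (1.81%). The windows called as risen had large folds at low levels, where only a large fold can pass the test, so these folds describe the calls alone. The median level of the windows that rose was 5.65 CPM in cpsf30-1 and 0.452 CPM in WT, and the median fold was 9.31, taking windows at 0 in WT at the bound given by 3 reads per library. Of the 263, 225 rose at least 4-fold, 156 at least 8-fold, and 33 had no read in either WT library. The windows that fell had a median of 2.13 CPM in cpsf30-1 and 12.2 CPM in WT, and 13 of the 28 fell at least 4-fold. A window passes the filter when it is high in 1 genotype, so windows near 0 in WT could be tested only where another genotype was higher.

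Isolated windows were also counted over all 13927, tested or not. In cpsf30-1, 2041 and 2023 isolated windows held at least 10 reads (14.7% and 14.5% of 13927), against 1223 and 1501 in WT (8.78% and 10.8%). Both cpsf30-1 libraries stood above both WT libraries, although WT replicate 2 was the deepest of the 4. That holds for windows with at least 10 reads: windows with no read numbered 7789 and 8067 in cpsf30-1, against 8879 and 8026 in WT, and there the genotypes overlap. The share of counts in isolated windows was 5.68% and 6.26% in cpsf30-1, against 5.92% and 5.53% in WT, and these values overlap.

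Of the 12 intergenic windows that rose with the smallest adjusted p, 4 followed genes of chlorophyll synthesis, the Calvin cycle and photorespiration. The ends of 3 of these and of APX1 are shown here, as the 30 bases before the annotated end, because they stand before windows with some of the smallest adjusted p. None of the 4 holds the hexamer AATAAA, which 5.92% of all placed ends hold, so its absence does not set them apart. All 4 are RefSeq sequence of TAIR10.1, in the direction of the transcript: GUN5 at chr5:4387307-4387336 minus strand, AT3G60750 at chr3:22457429-22457458 plus strand, GGT1 at chr1:8268385-8268414 minus strand and APX1 at chr1:2439636-2439665 plus strand.
GUN5: aacaaactatggttgagtcatgcttttgcg
AT3G60750: aaacgatttagaaagacaatgtaaaactcc
GGT1: aatccatgtcctagtttgtttttgattatg
APX1: aaaattaatttctctcgatatttatgcctc

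The window past GUN5, the magnesium chelatase subunit that commits protoporphyrin to chlorophyll, held 59.4 and 75.9 CPM in cpsf30-1, against 0.679 and 0.827 CPM in WT (log2 fold change 6.45 ± 0.32 SE, adjusted p = 0.000726). The window past AT3G60750, a transketolase of the Calvin cycle, held 55.0 and 70.4 CPM in cpsf30-1, against 1.47 and 1.58 CPM in WT (log2 fold change 5.35 ± 0.30 SE, adjusted p = 0.000726). In both, the cpsf30-1 libraries were high and alike and the WT libraries low and alike, with no overlap. GGT1 is a peroxisomal glutamate:glyoxylate aminotransferase of photorespiration, and its window held 25.3 and 27.7 CPM in cpsf30-1, against 0.792 and 1.05 CPM in WT (log2 fold change 4.80 ± 0.38 SE, adjusted p = 0.00209). The window past AGT, the alanine:glyoxylate aminotransferase of the same pathway, held 47.4 and 35.2 CPM in cpsf30-1, against 4.53 and 4.14 CPM in WT (log2 fold change 3.25 ± 0.30 SE, adjusted p = 0.00263). The 2 genotypes stayed apart in each. The window past APX1, a cytosolic ascorbate peroxidase that removes hydrogen peroxide, held 13.4 and 16.2 CPM in cpsf30-1, against 0.566 and 0.827 CPM in WT (log2 fold change 4.35 ± 0.37 SE, adjusted p = 0.00224).

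The remaining windows of this group belonged to genes of other functions. D-CDES, a D-cysteine desulfhydrase, had 28.4 and 31.4 CPM in cpsf30-1, against 1.13 and 1.50 CPM in WT (log2 fold change 4.47, adjusted p = 0.000757). RR3, a response regulator of cytokinin signalling, had 53.7 and 64.7 CPM in cpsf30-1, against 5.09 and 6.39 CPM in WT (log2 fold change 3.36, adjusted p = 0.00267). Both windows had no overlap between genotypes, and the RR3 window was the higher of the pair in WT. AT5G51110, annotated as a pterin dehydratase-like protein, had 28.7 and 42.1 CPM in cpsf30-1, against 3.17 and 1.96 CPM in WT (log2 fold change 3.81, adjusted p = 0.00224), and AT4G19830, an FKBP-like peptidyl-prolyl isomerase, had 24.0 and 35.0 CPM in cpsf30-1, against 1.47 and 1.65 CPM in WT (log2 fold change 4.22, adjusted p = 0.00147). AT3G59780, a rhodanese-like protein, had 19.8 and 15.9 CPM in cpsf30-1, against 0.339 and 0.903 CPM in WT (log2 fold change 4.74, adjusted p = 0.00249). AT1G51980, an insulinase-type peptidase, held the fewest WT reads of the group, with 11.4 and 15.5 CPM in cpsf30-1, against 0.226 and 0.451 CPM in WT (log2 fold change 5.19, adjusted p = 0.00237). AT5G59250, a transporter of the major facilitator superfamily, had 21.8 and 27.6 CPM in cpsf30-1, against 3.17 and 2.78 CPM in WT (log2 fold change 3.05, adjusted p = 0.00224). It shares 326 bases with the window of the convergent gene AT5G59260, so their reads are partly the same. There were 3 such pairs, or 6 windows, among the intergenic windows that rose.

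Fewer intergenic windows fell. AT5G37890, a RING-type protein, had 0.968 and 1.39 CPM in cpsf30-1, against 12.9 and 10.9 CPM in WT (log2 fold change -3.32 ± 0.30 SE, adjusted p = 0.00267). PDF1.2b, a plant defensin of the jasmonate response, had 1 and 2 reads in cpsf30-1, against 48 and 235 reads in WT (adjusted p = 0.00691). The WT libraries were far apart there, and the ratio of WT to cpsf30-1 had a 95% counting interval of 30.5 to 439, which covers counting error only. AT5G48480, a glyoxalase I family protein, had 43.4 and 51.4 CPM in cpsf30-1, against 130 and 130 CPM in WT (log2 fold change -1.45, adjusted p = 0.00367), and AT1G35612, annotated as an uncharacterized protein, had 2.23 and 2.23 CPM in cpsf30-1, against 14.8 and 11.1 CPM in WT (log2 fold change -2.53, adjusted p = 0.00478). CYP706A1, a cytochrome P450, had 41.2 and 43.3 CPM in cpsf30-1, against 97.3 and 111 CPM in WT (log2 fold change -1.30, adjusted p = 0.00524). The window of its downstream neighbour LBD32 held the same number of reads in 3 of the 4 libraries and 859 against 860 in WT replicate 1, so the 2 windows count as 1 result. Calls of PDF1.2b, CYP706A1 and LBD32 were lost without either cpsf30-1 library when the filter was repeated (adjusted p between 0.0502 and 0.0661).

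**Figure D2:**
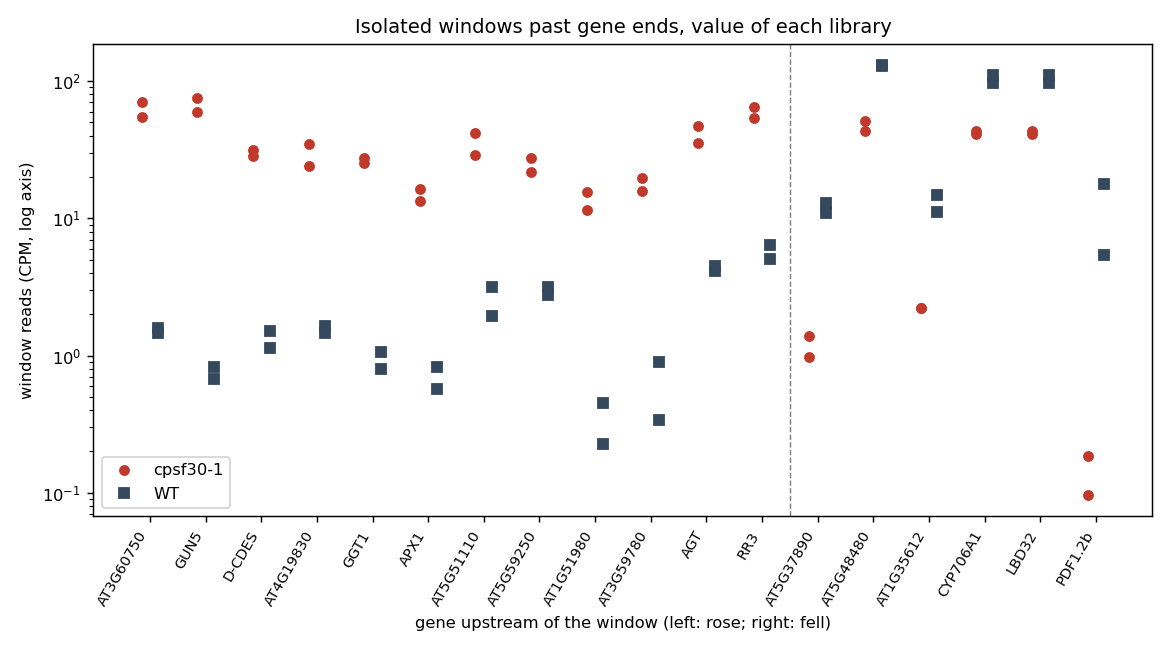
Window reads in CPM (log axis) in each library for the 12 intergenic windows that rose and the 6 that fell with the smallest adjusted p and a mean of at least 5 CPM in the higher genotype. Circles are the cpsf30-1 libraries and squares the WT libraries. Windows were chosen to have no overlap between genotypes, and run from GUN5 at 59.4 and 75.9 CPM in cpsf30-1 to PDF1.2b at 0.0968 and 0.186 CPM in cpsf30-1.

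Genes were sorted into 44 families by the product names of the annotation. Over all windows tested in a family, the largest shares of risen windows followed genes of photosynthesis and of phenylpropanoid synthesis. Family shares are to be read against 7.41% for risen and 2.85% for fallen windows over all tested. Counts of a family's isolated windows are to be read against 15.6% risen and 1.76% fallen over all isolated windows tested. Of isolated windows tested, 7 of 14 rose for the Calvin cycle and photorespiration and 4 of 17 for light-harvesting and photosystem genes (23.5%). For chlorophyll, heme and carotenoid genes 3 of 6 rose, and for phenylpropanoid and flavonoid genes 3 of 7. The light-harvesting share was below those of antioxidant enzymes (37.5%) and ribosomal proteins (30.8%), given below. Membership rests on names and symbols alone, and the place of each enzyme in the cell was not checked. Of 43 windows past genes of the Calvin cycle and photorespiration, 13 rose (30.2%) and 30 did not pass, with a median log2 fold change of 0.68. None fell by edgeR, 3 were lower at an unadjusted p under 0.05, and DESeq2 called 1 lower. Isolated windows made up 7 of the 13. Beside AT3G60750, GGT1 and AGT these were GLDP2, HPR, SHM4 and RBCS3B. GLDP2, a P-protein of glycine decarboxylase, had 59 and 103 reads in cpsf30-1, against 2 and 1 reads in WT (a ratio of 56.6 with a 95% counting interval of 19.0 to 277, adjusted p = 0.00496). HPR, the hydroxypyruvate reductase that precedes the return of carbon to the Calvin cycle, had 66 and 74 reads in cpsf30-1, against 12 and 17 reads in WT (log2 fold change 2.32, adjusted p = 0.0135). In both, WT libraries stood low and apart from cpsf30-1. SHM4, a serine hydroxymethyltransferase, had 156 and 180 reads in cpsf30-1, against 16 and 14 reads in WT (log2 fold change 3.50, adjusted p = 0.00568), and RBCS3B, a small subunit of Rubisco, had 39 and 37 reads in cpsf30-1, against 1 and 3 reads in WT (log2 fold change 4.25, adjusted p = 0.0158). The other 6 rose on windows that touch another gene: RPE, FBA1, FBA7, GAPA-2, PGLP2 and AT1G11860. The window of FBA1, a plastid aldolase, held 364 and 1351 reads in cpsf30-1, against 134 and 202 reads in WT, so the cpsf30-1 libraries lay far apart (adjusted p = 0.0498).

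Among 63 windows past light-harvesting and photosystem genes, 17 rose (27.0%) and 46 did not pass, with a median log2 fold change of 0.43. None fell by edgeR, although 4 were lower at an unadjusted p under 0.05 and DESeq2 called 3 lower. In 13 of the 17 the window touches another gene. The windows that touch another gene include those past PSAK, PSAF and PSAH2, all subunits of photosystem I. Among the 63, PSAT is annotated as a phosphoserine aminotransferase and was matched by its symbol alone, and its window was not called. The isolated windows were those of LHCB5, LHCA1, LHCA2 and AT1G49975. LHCA2 had 139 and 138 reads in cpsf30-1, against 8 and 1 reads in WT (log2 fold change 4.89, adjusted p = 0.0132), and LHCA1 had 105 and 76 reads in cpsf30-1, against 3 and 20 reads in WT (log2 fold change 3.12, adjusted p = 0.0212). In LHCA1 the highest WT library reached 20 reads and stayed below both cpsf30-1 libraries. LHCB5, an antenna protein of photosystem II, had 216 and 152 reads in cpsf30-1, against 42 and 68 reads in WT (log2 fold change 1.82, adjusted p = 0.0128).

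Chlorophyll, heme and carotenoid genes moved in both directions, with 6 of 28 windows risen (21.4%), 3 fallen (10.7%) and 19 not called. Beside GUN5, HEMA1, the glutamyl-tRNA reductase that starts tetrapyrrole synthesis, rose with 114 and 72 reads in cpsf30-1, against 1 and 3 reads in WT (log2 fold change 5.54, adjusted p = 0.00368). LIN2, a coproporphyrinogen oxidase, rose less, with 149 and 100 reads in cpsf30-1, against 30 and 45 reads in WT (log2 fold change 1.80, adjusted p = 0.0351). The risen windows past CRTISO, SIRB and AT5G26160 touch other genes. All 3 windows that fell, past HEMC, PORB and AT1G02350, do too. The window of PORB, a protochlorophyllide oxidoreductase, held 822 and 634 reads in cpsf30-1, against 1152 and 2437 reads in WT (log2 fold change -1.18, adjusted p = 0.0198), and that of HEMC, which makes hydroxymethylbilane, held 57 and 57 reads in cpsf30-1, against 124 and 168 reads in WT (log2 fold change -1.30, adjusted p = 0.0122).

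Phenylpropanoid and flavonoid genes had 8 of 29 windows risen (27.6%) and 21 not called. None fell by edgeR or DESeq2, and 2 were lower at an unadjusted p under 0.05. TT4 is chalcone synthase, the entry enzyme of flavonoid synthesis, and its window held 109 and 119 reads in cpsf30-1, against 3 and 1 reads in WT (log2 fold change 5.78, adjusted p = 0.00338), but it touches AT5G13940 on the other strand. F3H, flavanone 3-hydroxylase, had 51 and 44 reads in cpsf30-1, against 0 and 0 reads in WT, at least 16.0-fold higher in cpsf30-1 (adjusted p = 0.00810), and TT5, chalcone isomerase, had 40 and 34 reads in cpsf30-1, against 0 and 1 reads in WT (a ratio of 77.6 with a 95% counting interval of 13.5 to 3105, adjusted p = 0.0210). These 3 enzymes follow one another in the pathway, and WT was at or near 0 in each window. ELI3-1 had 47 and 119 reads in cpsf30-1, against 3 and 6 reads in WT (log2 fold change 4.24, adjusted p = 0.0140), with the cpsf30-1 libraries apart from each other. The window past CAD6 lies on ELI3-1 on the same strand, and held 1850 and 2486 reads in cpsf30-1, against 1010 and 1249 reads in WT (log2 fold change 0.98, adjusted p = 0.0235). The other 3 were CAD9, PAL2 and PAL4, all on other genes, PAL2 and PAL4 encoding phenylalanine ammonia-lyases.

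These family counts were smaller without 1 cpsf30-1 library. Calls over all windows were fewer in these fits too, so the counts do not tell how the families stood against the background. The calls of LHCA2 and F3H, and of GSTU5 described below, were lost without either cpsf30-1 library when the filter was repeated. The log2 fold change of LHCA2 was then 4.83 without replicate 1 and 4.84 without replicate 2. LHCB5 was lost without replicate 1 (log2 fold change 1.50) and ELI3-1 without replicate 2 (3.39). With the filter repeated, the Calvin cycle and photorespiration count was 8 without cpsf30-1 replicate 1 and 3 without replicate 2, the light-harvesting count 5 and 6 in the same order of replicates, the phenylpropanoid count 2 and 1, and the chlorophyll count 2 and 2. Of the WT libraries, leaving out replicate 2 gave 7 risen windows in the first of these families, 13 in the light-harvesting family, 3 in the phenylpropanoid family and 3 in the chlorophyll family. Leaving out WT replicate 1 gave 9, 13, 5 and 2.

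The next families described lay nearer the background over all their windows. Of their isolated windows, 6 of 16 rose for antioxidant enzymes (37.5%), 2 of 7 for glutathione S-transferases and 8 of 26 for ribosomal proteins (30.8%). For kinases 12 of 108 isolated windows rose (11.1%), and for heat shock proteins 5 of 26 (19.2%). Antioxidant enzymes, thioredoxins and glutaredoxins had 10 of 97 windows risen (10.3%) and 1 fallen, among them CAT2, the catalase of leaf peroxisomes, with 968 and 893 reads in cpsf30-1, against 87 and 272 reads in WT on a window that touches another gene (adjusted p = 0.00825). ATHM2, a plastid thioredoxin on an isolated window, had 84 and 58 reads in cpsf30-1, against 4 and 1 reads in WT (adjusted p = 0.0103). Glutathione S-transferases had 4 of 32 risen (12.5%), with GSTU19 at 12.1 and 11.5 CPM in cpsf30-1, against 1.02 and 0.602 CPM in WT (log2 fold change 3.89, adjusted p = 0.00484). Ribosomal proteins had 22 of 219 risen and 6 fallen (2.74%). Receptor-like and other kinases had 55 of 753 risen (7.30%) and 19 fallen (2.52%), and heat shock proteins and DnaJ chaperones 15 of 175 risen (8.57%) and 3 fallen (1.71%). In the last of these BIP1, a chaperone of the endoplasmic reticulum, had 12.7 and 14.9 CPM in cpsf30-1, against 1.24 and 0.978 CPM in WT (log2 fold change 3.64, adjusted p = 0.00367). The starch kinase SEX1, a glucan water dikinase, had 87 and 70 reads in cpsf30-1, against 1 and 1 read in WT, a ratio of 82.3 with a 95% counting interval of 22.4 to 685 (adjusted p = 0.00309).

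Several families had shares of risen windows below the background. Of 208 windows past pentatricopeptide repeat genes, which encode organelle RNA-binding proteins, 6 rose (2.88%) and 4 fell (1.92%), and none of the 20 isolated ones was called by edgeR, while 2 were higher at an unadjusted p under 0.05 and DESeq2 called 1. F-box and RING-type genes, which encode parts of ubiquitin ligases, had 16 of 414 risen (3.86%) and 21 fallen (5.07%), a larger count of fallen than of risen windows. No window of 60 past bHLH transcription factor genes rose by edgeR and 1 fell, while 3 were higher at an unadjusted p under 0.05 and DESeq2 called 2 higher. The cytoskeleton family had 8 risen and 8 fallen of 154, and DNA replication, repair and cell cycle genes had 4 of 103 risen, and none fell by edgeR, with 7 lower at an unadjusted p under 0.05 and 2 by DESeq2. Auxin signalling and SAUR genes were above it, with 9 of 85 risen (10.6%), all on windows that touch another gene, and none of their 23 isolated windows was called by edgeR or DESeq2, with 2 higher and 4 lower at an unadjusted p under 0.05. Among 29 windows past genes for 3' end processing and termination factors, 2 rose, and none fell by edgeR, with 4 lower at an unadjusted p under 0.05 and 1 by DESeq2. Both risen windows, past SAP130a and SAP130b, lie on AT3G55210, the gene between them. The annotation names both genes as subunits of the cleavage and polyadenylation specificity factor. They are in this family by name only, and a part in 3' end processing was not tested.

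**Figure D3:**
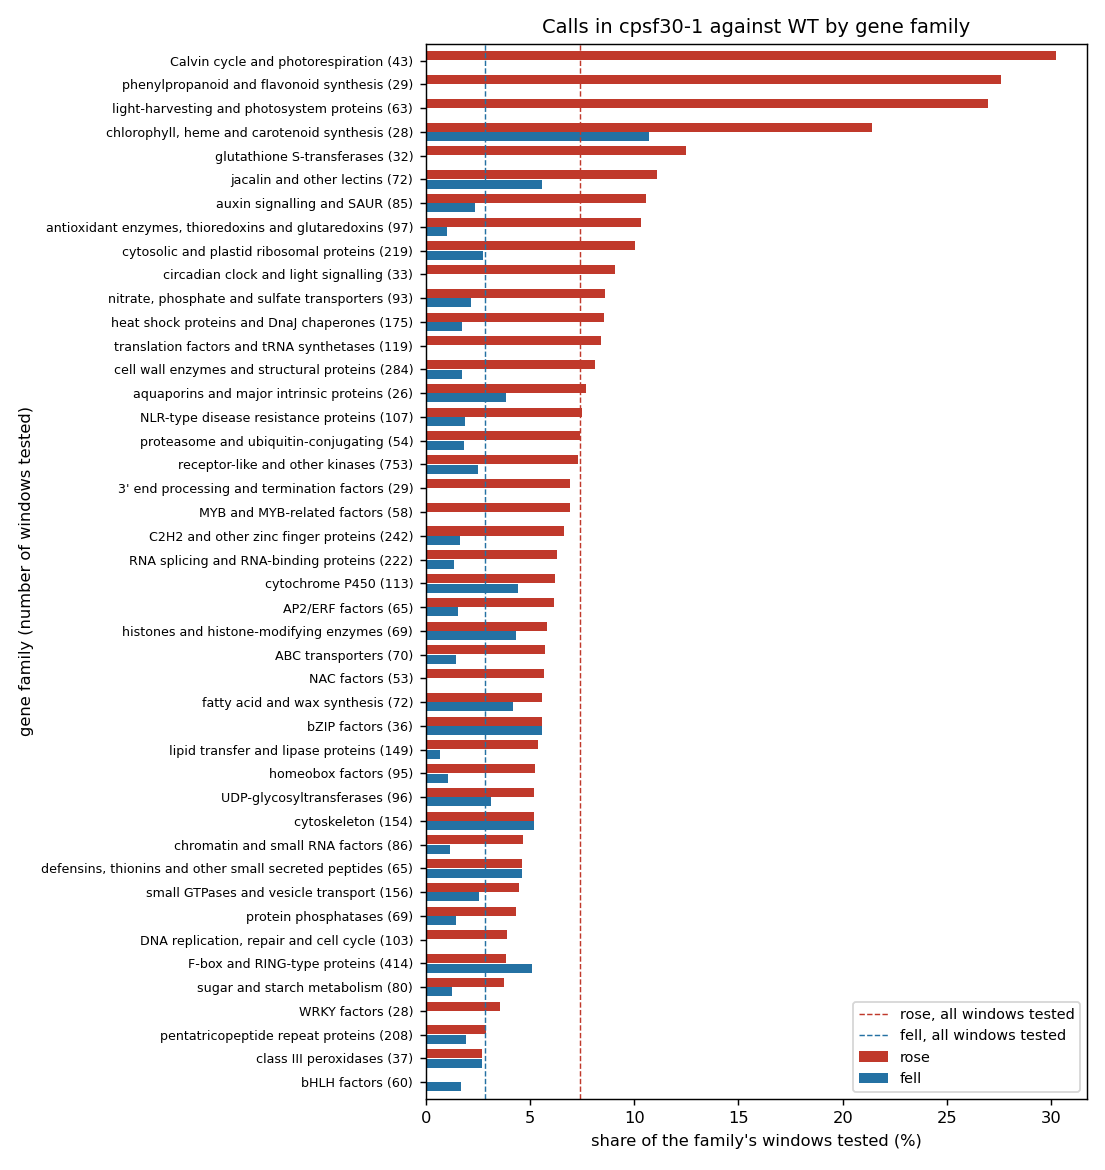
Share of the windows tested in each of 44 gene families that rose (red) or fell (blue) in cpsf30-1 against WT, with the number of windows tested in brackets. Dashed lines mark 7.41% and 2.85% over all windows tested, and the Calvin cycle family stands highest at 30.2% risen.

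Shares of intergenic windows that rose differed by the number of exons of the gene. For genes of 1 exon, 34 of 332 intergenic windows rose (10.2%), for 2 to 4 exons 88 of 563 (15.6%), for 5 to 8 exons 73 of 343 (21.3%) and for over 8 exons 68 of 309 (22.0%). The median log2 fold changes were 0.20, 0.63, 1.13 and 0.90 in the same order. The WT level cannot be read the same way, because a window low in WT passes the filter mainly where another genotype is higher and the same WT reads enter the fold change. As a description, where WT held under 1 CPM, 28.3% of 635 windows rose, at 1 to 4 CPM 9.57% of 554 and over 4 CPM 8.38% of 358. Under 1 CPM none fell by edgeR, with 6 lower at an unadjusted p under 0.05 and 1 by DESeq2. The shares that fell at the higher levels were 1.44% and 5.59%. Within each WT level, genes of 1 exon had the lowest share of risen windows, but only under 1 CPM did the share rise at every step. From fewest to most exons the shares were 19.4%, 27.1%, 29.5% and 35.4% under 1 CPM. At 1 to 4 CPM they were 6.21%, 8.02%, 15.7% and 11.6%, and over 4 CPM 5.95%, 7.38%, 12.9% and 7.46%. On windows touching genes on the other strand only they were 4.50%, 4.57%, 5.02% and 4.75%. Where a gene lay on the same strand they were 6.97%, 6.82%, 8.46% and 9.93%. Over all intergenic windows, the difference between over 8 exons and 1 exon was 11.8 percentage points. With 1 library dropped on the same windows it was 5.06 and 3.76 points for cpsf30-1 replicates 1 and 2, and 11.6 and 5.67 points for WT replicates 1 and 2. With the filter repeated it was 3.33 and 1.90 points for cpsf30-1 replicates 1 and 2, and 4.18 and 2.18 points for WT replicates 1 and 2. Every one of these differences was above 0. Genes shorter than 1000 bases had 11.6% of 146 intergenic windows risen, those of 1000 to 3000 bases 18.0% of 940 and longer ones 16.7% of 461.

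Shares of intergenic windows that rose were also set beside the place of the next gene. Where the next gene ran towards the window, 81 of 510 rose (15.9%), and where it ran in the same direction, 182 of 1037 rose (17.6%). The share was 15.7% where the next gene lay under 1000 bases away, 19.7% at 1000 to 2000 bases and 15.5% beyond. By chromosome it lay between 15.3% (chromosome 4) and 19.4% (chromosome 2). Intergenic windows with under 30% G and C rose in 15.3% of 609 cases, against 19.8% of 328 windows over 35%. Pseudogenes had 11 of 228 windows risen and 9 fallen over all window classes, and none of the 31 windows past genes noted as transposable elements was called by edgeR, with 5 higher and 5 lower at an unadjusted p under 0.05 and 1 each way by DESeq2.

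**Figure D4:**
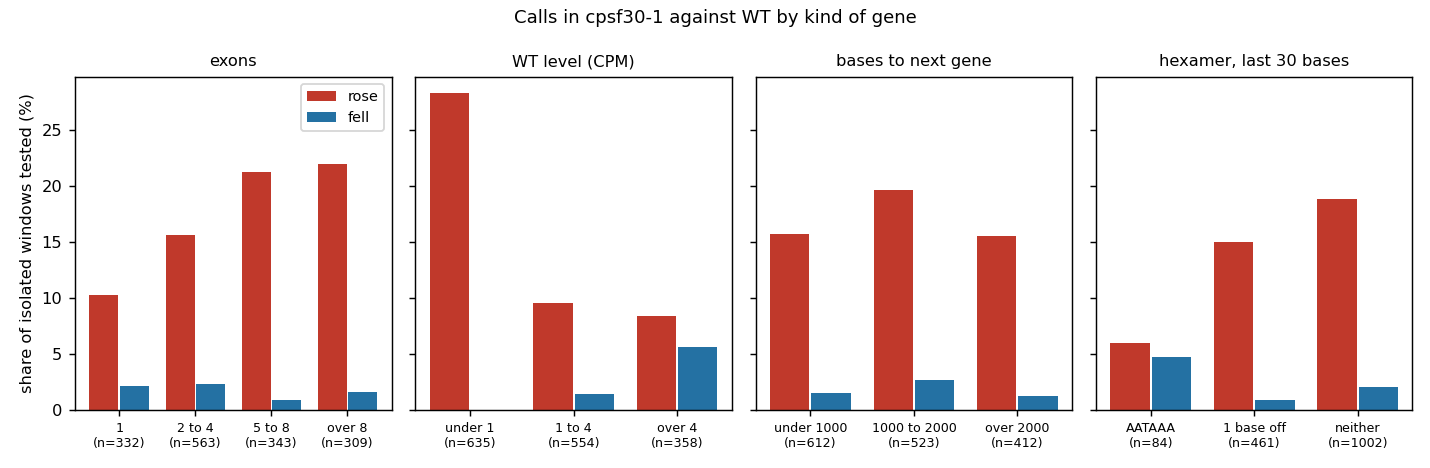
Share of intergenic windows tested (vertical axis, percent) that rose (red) or fell (blue) in cpsf30-1 against WT, by number of exons, mean WT level, bases to the next gene and hexamer in the last 30 bases, with the number of windows below each pair of bars. Risen shares run from 10.2% at 1 exon to 22.0% over 8 exons, and from 5.95% with AATAAA to 18.9% with neither hexamer.

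The hexamer AATAAA was looked for on the transcript strand in the 30 bases before the annotated end, and 1812 of all 30618 placed ends (5.92%) hold it. Among intergenic windows of genes with the hexamer, 5 of 84 rose (5.95%, 95% Wilson interval 2.57% to 13.2%) and 4 fell (4.76%). Of those without it, 258 of 1463 rose (17.6%, 15.8% to 19.7%) and 24 fell (1.64%). Genes with a hexamer 1 base away from AATAAA were between, with 69 of 461 risen, and those with neither had 189 of 1002 (18.9%). These intervals cover counting error over windows only. The gap was smaller in wider sets: over all isolated windows 9.09% of 110 with AATAAA rose, against 16.0% of 1822 without. Where a gene lay on the other strand the shares were 3.28% and 4.80%, and on the same strand 7.54% and 8.15%. Of intergenic windows, 22 of the 84 with AATAAA and 613 of the 1463 without it held under 1 CPM in WT. There 13.6% and 28.9% rose, and at 1 to 4 CPM 5.13% and 9.90%. Of the 9 called windows whose ends carry the hexamer, 4 ends are shown, first 2 that rose, ALDH11A3 at chr2:10326918-10326947 minus strand and NEET at chr5:21010316-21010345 plus strand, then 2 that fell, MLP31 at chr1:26712982-26713011 minus strand and AT1G67856 at chr1:25442990-25443019 plus strand, all RefSeq sequence of TAIR10.1 with AATAAA in capitals.
ALDH11A3: tactacAATAAAgtattctttcagatggta
NEET: cttatAATAAAggaaaaatattcaaaattt
MLP31: ttAATAAAagcttgtgagatatgtttgtgg
AT1G67856: ttttttataacgAATAAAtgtgcttttgat

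ALDH11A3 is a glyceraldehyde-3-phosphate dehydrogenase of the non-phosphorylating kind, and its window held 84 and 52 reads in cpsf30-1, against 4 and 12 reads in WT (log2 fold change 3.18, adjusted p = 0.0141). NEET, an iron-sulfur protein, had 36 and 34 reads in cpsf30-1, against 1 and 0 reads in WT (a ratio of 73.4 with a 95% counting interval of 12.7 to 2939, adjusted p = 0.0181). In these 2 the WT libraries were lower than both cpsf30-1 libraries. MLP31, a member of the major latex protein family, had 445 and 204 reads in cpsf30-1, against 1355 and 1238 reads in WT (log2 fold change -1.99, adjusted p = 0.0315), and AT1G67856, a RING-type protein, had 5 and 8 reads in cpsf30-1, against 26 and 59 reads in WT (log2 fold change -2.57, adjusted p = 0.0248). The other 3 with the hexamer that rose were AT3G47510, AT4G04635 and AT5G01010, and the other 2 that fell were AT4G03635 and AT4G22530.

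The gap between ends without and with AATAAA, 11.7 percentage points, moved both ways with the processing. It was 13.0 points with DESeq2's size factors, 13.6 at a mean count of at least 20 and 12.9 with runs left out, against 10.9 by DESeq2's own test, 8.36 in a fit of the 4 libraries and 5.48 with the replicate block. With 1 library dropped on the same windows it was 3.43 and 2.95 points for cpsf30-1 replicates 1 and 2, and 3.30 and 5.83 points for WT replicates 1 and 2. With the filter repeated it was 1.79 and 1.12 points for cpsf30-1 replicates 1 and 2, and 4.40 and 3.53 points for WT replicates 1 and 2. It was 1.52 points with no filter on low counts. With the last 40 bases searched it was 8.32 points and with the last 50 bases 4.40. The annotated end is that of the reference and may not be the end from which the window was counted. Within the window itself, 18.4% of 751 intergenic windows with no AATAAA rose, 16.5% of 479 with 1 and 14.5% of 317 with 2 or more. The motif TGTA was absent from 136 windows, of which 15 rose, while 18.7% of 942 windows with 1 to 3 copies and 15.4% of 469 with 4 or more rose. TGTA, also searched on the transcript strand, occurs in 88.5% of all windows and AATAAA in 45.0%.

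Reads on the exons of a gene changed less than reads past its end in most genes where both could be read. For 66 genes with a risen intergenic window, another deposited window, of a neighbour or of an isoform, lay on at least 250 bases of their exons and of no other gene's. The median log2 fold change was 3.02 past the end and 0.56 on the exons, where 21 rose, and in 59 of the 66 the window rose more than the exons. The windows were taken because they had risen and the exon readings were not, so these medians are a description. No exon reading fell by edgeR, and none was lower at an unadjusted p under 0.05. In 23 of the 66 the reading came from the gene's own isoform, and 8 readings repeated the counts of the window in all 4 libraries. After these repeats were seen, the readings were narrowed in 2 steps. With readings that share no base with the gene's own window, 50 genes were left, with a median of 0.44 on the exons. With neighbours' windows only among these, 44 genes were left, with medians of 3.05 past the end and 0.35 on the exons. In these 44, 6 exon readings rose, the quartiles ran from -0.06 to 1.03, and in 42 of the 44 the window rose more. For 190 genes whose window was not called, read by either kind, the medians were 0.28 past the end and -0.08 on the exons. In 142 of these 190 the window also stood above the exons in log2 fold change. With neighbours' windows only, 139 such genes were left, with medians of 0.27 and -0.13, and in 105 of them the window stood above the exons. A window above its exons was thus common among genes not called too. Over all 19125 windows in the fit these readings come from, 7.87% rose and 3.33% fell. The neighbour's own reads past its end are part of such a reading.

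HPR exons stood at 1191 and 1317 CPM in cpsf30-1, against 1305 and 1175 CPM in WT (log2 fold change 0.02, adjusted p = 0.969), where the genotypes overlap, while its window rose as given above. AT5G51110 exons stood at 678 and 776 CPM in cpsf30-1, against 560 and 507 CPM in WT (log2 fold change 0.45, adjusted p = 0.137), against a log2 fold change of 3.81 past its end. Its exon reads were higher in both cpsf30-1 libraries, by much less than the window. The exons of GSTU5, a glutathione S-transferase, stood at 305 and 302 CPM in cpsf30-1, against 197 and 216 CPM in WT (log2 fold change 0.56, adjusted p = 0.0535), and its window held 51 and 38 reads in cpsf30-1, against 1 and 1 reads in WT. JAC1, a J-domain protein needed for chloroplast movement, had exons at 26.7 and 16.5 CPM in cpsf30-1, against 23.2 and 32.3 CPM in WT (log2 fold change -0.36, adjusted p = 0.474) and a window of 94 and 55 reads in cpsf30-1, against 8 and 9 reads in WT (log2 fold change 3.17, adjusted p = 0.0115). Of the 3 genes with a fallen window and a reading from a neighbour, AT5G48480 had exons at 13.4 and 16.6 CPM in cpsf30-1, against 15.3 and 14.2 CPM in WT (log2 fold change 0.03, adjusted p = 0.945), so they overlap while its window fell. Not every gene was of this kind: AT1G30390 exons, read through the window of PSAK upstream of it on the same strand, stood at 17.0 and 17.4 CPM in cpsf30-1, against 1.26 and 0.999 CPM in WT (log2 fold change 3.94, adjusted p = 0.00243), and NDT1 exons at 7.59 and 7.26 CPM in cpsf30-1, against 1.84 and 1.39 CPM in WT (log2 fold change 2.21, adjusted p = 0.0253).

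**Figure D5:**
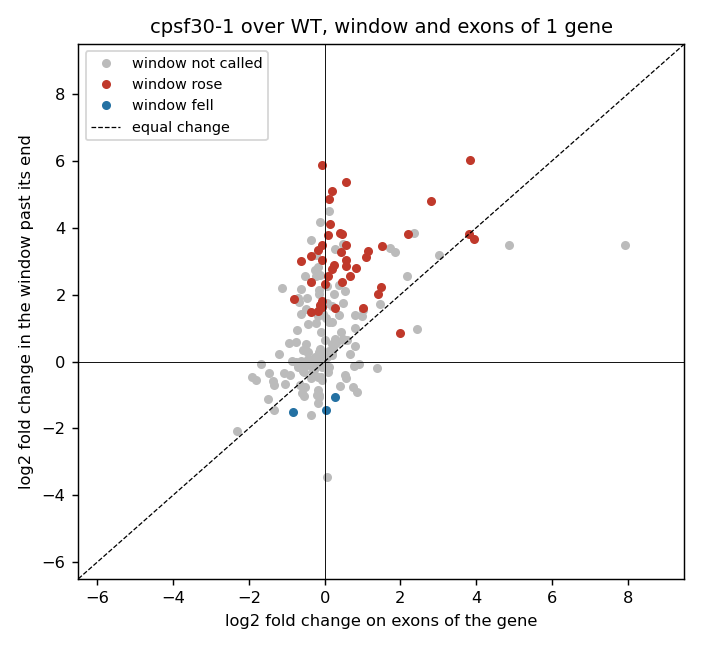
Log2 fold change of cpsf30-1 over WT in the intergenic window (vertical axis) against that on exons of the same gene (horizontal axis), 1 point a gene read through a neighbour's window, with the dashed line where both are equal. Of the 44 genes whose window rose (red), 42 lie above the line, and of the 139 whose window was not called (grey), 105 had the window above the exons.

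Where a window touches another gene, its reads can be that gene's, and some of the clearest changes were of this kind. The window past SDH1-2, a succinate dehydrogenase subunit, lies on AT2G18440 on the same strand and held 18.9 and 18.7 CPM in cpsf30-1, against 150 and 188 CPM in WT (log2 fold change -3.17, adjusted p = 0.000726). The window past the histone gene HTB9 lies on EXLA1, an expansin-like gene on the other strand, and held 40.7 and 43.0 CPM in cpsf30-1, against 185 and 187 CPM in WT (log2 fold change -2.15, adjusted p = 0.00137). Both fell, with the genotypes far apart. The windows of EGY3, at 110 and 124 CPM in cpsf30-1, against 621 and 633 CPM in WT, and AT5G05598, at 28.2 and 39.8 CPM in cpsf30-1, against 158 and 151 CPM in WT, lie on AT1G17860 and AT5G05600 on the same strand and fell too (adjusted p = 0.00103 and 0.00249). Those of AT4G13572, at 0.387 and 0.371 CPM in cpsf30-1, against 21.6 and 16.5 CPM in WT, and AT2G16365, at 9.77 and 9.28 CPM in cpsf30-1, against 63.2 and 86.0 CPM in WT, touch AT4G06115 and AT2G16367 on the other strand (adjusted p = 0.000757 and 0.00224). Past SCD1 and AT1G49030, 2 neighbouring genes that converge on AT1G49032, the windows held 2.32 and 3.99 CPM in cpsf30-1, against 28.4 and 32.8 CPM in WT (SCD1), and 10.1 and 8.26 CPM in cpsf30-1, against 46.3 and 56.3 CPM in WT (AT1G49030), and both fell (adjusted p = 0.00280 and 0.00357).

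Among those that rose, the window past AT3G21670, a transporter of the major facilitator superfamily, touches AT3G21660 on the same strand and held 55.2 and 50.9 CPM in cpsf30-1, against 0.453 and 0.602 CPM in WT (log2 fold change 6.59, adjusted p = 0.000726). The window past AT5G14910, at 50.3 and 50.9 CPM in cpsf30-1, against 1.47 and 1.05 CPM in WT, touches AT5G14920 (log2 fold change 5.34, adjusted p = 0.000726). Both were near 1 CPM in WT and at about 50 CPM in cpsf30-1. ATPC1, the gamma subunit of the chloroplast ATP synthase, had 58.3 and 48.7 CPM in cpsf30-1, against 2.60 and 2.26 CPM in WT on a window that touches AT4G04915 (log2 fold change 4.46, adjusted p = 0.000757). FBP, a fructose-1,6-bisphosphatase, had 218 and 234 CPM in cpsf30-1, against 23.0 and 17.1 CPM in WT (log2 fold change 3.50, adjusted p = 0.00147), and PSAH2 had 343 and 394 CPM in cpsf30-1, against 79.9 and 63.9 CPM in WT on a window that touches AT1G52240 on the other strand (log2 fold change 2.36, adjusted p = 0.00209). All of these kept the genotypes apart. UGT75B1, a glucosyltransferase whose window touches AT1G05562, had 255 and 262 reads in cpsf30-1, against 0 and 0 reads in WT, at least 86.7-fold higher (adjusted p = 0.00147). The cell cycle kinase gene CDKB2;1, whose window touches AT1G76530, had 38.8 and 31.3 CPM in cpsf30-1, against 4.64 and 4.36 CPM in WT (log2 fold change 2.96, adjusted p = 0.00209). ABP1, whose window lies on AT4G02970, annotated as a 7SL RNA, had 264 and 274 CPM in cpsf30-1, against 43.6 and 45.7 CPM in WT (log2 fold change 2.59, adjusted p = 0.00209). Windows touching genes on the other strand only were also divided by the first gene lying wholly past the annotated end. Where that gene converged, 262 of 4908 windows rose (5.34%) and 134 fell (2.73%). Where it ran in the same direction, 76 of 2268 rose (3.35%) and 91 fell (4.01%). In the latter it lies beyond the window, and the gene touched overlaps the annotated end from the other strand. The division is therefore not by the direction of the gene touched.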

How the data were processed

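Per the labels, RNA from 9-day-old seedlings was treated with DNase and made into stranded poly(A) libraries that were sequenced as paired reads. The deposited values are whole-number counts of reads in the 500 bases past each transcript's 3' end, not normalized by the authors. The submitters' processing notes name TAIR10 as the build, and TopHat2 2.0.7 with Bowtie2 2.3.4 and Cufflinks 2.2.1 among the tools, and the tool that counted the windows is not given here. Genes were named and windows placed from RefSeq gene models of TAIR10.1, which matched 38527 of 39087 transcripts. For each gene the transcript ending farthest downstream was kept, never chosen from counts.

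The 14151 windows that passed filterByExpr (16958 did not) were fitted in edgeR 4.0.16 (R 4.3.3) with TMM scaling and 1 mean per genotype over all 6 libraries, and tested by the quasi-likelihood F-test, two-sided, with Benjamini-Hochberg adjustment across all genes tested. Residual degrees of freedom were 3 and TMM factors 0.958 to 1.05. Fold changes are cpsf30-1 over WT, CPM uses TMM-scaled totals, and a fold against 0 reads is a bound from 3 reads per library (0.290 and 0.278 CPM in cpsf30-1, 0.339 and 0.226 CPM in WT). At lower depth small changes were not detectable. The code was tested on simulated data.

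Named windows were calls without overlap between genotypes: the 12 isolated ones that rose and 6 that fell with the smallest adjusted p and at least 5 CPM in the higher genotype, 4 per direction for windows on other genes, up to 2 per direction and family at 1 CPM or more, and CPSF30. Other members of the families described were named after their values were seen. The members, lists and tests were chosen with earlier results of these data known. Product-name patterns for families were corrected after false matches were seen, the floor that defines runs was set on these counts, and exon readings were also given without bases shared with the gene's window, and for neighbours' windows alone, after isoform windows were seen to repeat the counts of the gene's own. Same-numbered libraries did not vary together: the correlation of same-numbered deviations was -0.31 between cpsf30-1 and WT. With 2 libraries per genotype, cpsf30-1 replicate 1 thus tended to vary with WT replicate 2, across the numbers. Between cpsf30-1 and nerd-1 the correlation was -0.001, and between nerd-1 and WT -0.005. What the crossed libraries of cpsf30-1 and WT share was not tested. Alternatives included DESeq2 1.42.0, other scalings and filters, a replicate block and each library left out.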

Additional observations from a re-analysis of the deposited data

How the results depend on the processing

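The counts of calls depended on the filter and the spread, and no result reversed. Calls that rose and fell numbered 1049 and 404, and 301 and 34 among isolated windows. They were 1784 and 1023 with no filter (626 and 148 isolated), 692 and 131 in a fit of 4 libraries (19 isolated fell), and 291 and 54 at an adjusted p under 0.01 (77 and 10 isolated). DESeq2 called 677 as fallen, 60 of them isolated. A mean count of at least 20 left 170 and 22 isolated calls, and 189 isolated windows rose where no gene lay within 1000 bases. With the replicate number as a block the counts were 490 and 102 (136 and 12 isolated). With the numbers of cpsf30-1 exchanged in the block they were 1378 and 740 (348 and 46 isolated). Leaving out 1 library gave 180 to 832 risen and 56 to 464 fallen windows, and 49 to 248 risen and 6 to 81 fallen isolated ones. The lone library of a genotype is then assumed to vary like the others. The median log2 fold change of isolated windows, 0.50, was 0.21 with no filter, 0.27 at a mean of at least 20, 0.33 for the highest-total transcript, 0.56 without runs and 0.44 to 1.00 with 1 library left out. The median on exons of genes with a risen window, 0.56, was 0.44 from readings that share no base with the gene's own window and 0.35 from neighbours' windows alone among these. The cause was not tested. Of 224 other values, 117 stayed within 1.5 times or the spread and 107 did not. Of the 83 named windows none changed direction, and the replicate block kept 64 calls. DESeq2 kept 82, and leaving out 1 library with the filter repeated kept 42 to 67. The exchanged block, the 40 and 50 base searches, the use of all isolated windows and the other exon readings were added after seeing the data.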
